A study of Glycine max with 2 samples.

Results

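Phytochromes are the red and far-red light receptors of plants. Each is a protein with a bound bilin pigment that switches between an inactive form and an active form, which moves into the nucleus and acts on transcription factors of light responses. In Arabidopsis, phytochrome A is the light-labile receptor of far-red and very dim light, and phytochrome B is the light-stable receptor of red light and of shade. In soybean, the maturity loci E3 and E4 are phytochrome A genes, and plants without their function flower earlier in long days. Soybean is an ancient polyploid, and most of its genes, the phytochromes among them, are present as duplicated copies.

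The expression of 6 phytochrome loci was examined in young shoot tips of the soybean isolines Clark glabrous (CG) and Clark standard (CS), out of 69145 loci in the tables. They were picked out by a fixed list of Glyma identifiers. The 4 phytochrome A loci are Glyma19g41210, which is E3, Glyma20g22160, which is E4, Glyma10g28170 and Glyma03g38620, and the 2 phytochrome B loci are Glyma09g03990 and Glyma15g14980. Each locus was present with 1 cDNA model, so that these 6 models stand for all 6 loci. The first 2 digits of an identifier give the chromosome, and no other coordinates were used. By background knowledge they form duplicated pairs, E3 with Glyma03g38620, E4 with Glyma10g28170, and both phytochrome B loci with each other.

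CG is the hairless mutant line, which carries the dominant P1 glabrous allele brought into Clark by repeated backcrossing, and CS is the wild type with trichomes. Both were grown in the greenhouse without a treatment, and shoot tips were taken from plants about 4 weeks old. There was 1 RNA-Seq library per line, from many pooled shoot tips. Differences between the lines could not be checked against replicate RNA-Seq libraries and were not tested. The study also counted short sequence tags in a separate shoot tip sample of each line, and phytochrome tags were not used here. CG is a single isoline, and fewer cells of a type and less RNA per cell cannot be told apart in such pooled tissue. Expression is given as deposited RPKM, reads per kilobase of cDNA model, which the study describes as scaled to the library's mapped reads. This allows levels of genes to be compared per length.

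The totals behind the RPKM values were worked out as 147273809 alignments in CG and 152791817 in CS. By these totals the values are scaled to alignments rather than to mapped reads. The study reports fewer mapped reads than this, with more in CG than in CS. Scaling to those mapped reads was not tested. Alignments per model were recovered as the smallest whole numbers that give both deposited values, and exact Poisson 95% intervals were taken from them. They cover counting error only, and reads that align to several models are counted on each. The 5 photosynthesis related loci that served as a check of green tissue were all present, with levels between 16.2 and 280.9 RPKM in CG and between 42.0 and 1575 RPKM in CS, taking the highest model of each locus. These 5 models added up to 739.2 RPKM in CG and 4106 RPKM in CS, and their part in the phytochrome values was not tested. The tables of the study list these loci because their tags were higher in CS, so they are not an independent sign of a difference between the lines. Defining markers of the shoot apex are not annotated in the tables, and the tissue label was not checked further.

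The phytochrome A genes E4 and Glyma10g28170 had the highest levels of the phytochrome genes examined, in both lines. The phytochrome B genes stood in the middle, and E3 and Glyma03g38620 were below 1 RPKM. All 4 phytochrome A genes had lower values in CG than in CS, and both phytochrome B genes had higher values in CG. Of all models whose mean RPKM was at least 1, 27.3% were lower in CG and 72.7% were higher in CG. None of the phytochrome differences reached 2-fold in the deposited values, where 13.9% of all these models were at least 2-fold higher in CG and 5.57% were higher in CS by at least 2-fold.

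E4 had 10.7 RPKM in CG (interval 10.4 to 10.9) and 12.5 RPKM in CS (interval 12.2 to 12.8), from at least 6002 and 7297 alignments. Its value in CG was 0.853 of that in CS, with an exact (Clopper-Pearson) interval of 0.825 to 0.883. The log2 CG/CS ratio was -0.23 after 0.1 RPKM was added to both values. E4 had rank 13505 of the 78773 models in CG and rank 9222 in CS. The counting intervals of the levels did not overlap between the libraries for E4 or for any other of the 6 genes, and they did not for 77.9% of the models whose mean RPKM was at least 1 and whose alignments were recovered.

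Glyma10g28170, the duplicate of E4, had nearly the same level, with 9.64 RPKM in CG (interval 9.37 to 9.92) and 11.5 RPKM in CS (interval 11.2 to 11.8). It gave at least 4819 alignments in CG and 5950 in CS. Its level in CG was 0.840 of that in CS (interval 0.809 to 0.873), a log2 CG/CS ratio of -0.25. E4 made up 52.5% of the summed level of this pair in CG (interval 51.5% to 53.4%) and 52.1% in CS (interval 51.3% to 53.0%). These intervals overlap between the lines. The alignment allowed 3 mismatches and up to 25 places per read, so a read that fits both duplicates is counted on both, and how many reads they share was not tested.

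**Figure D1:**
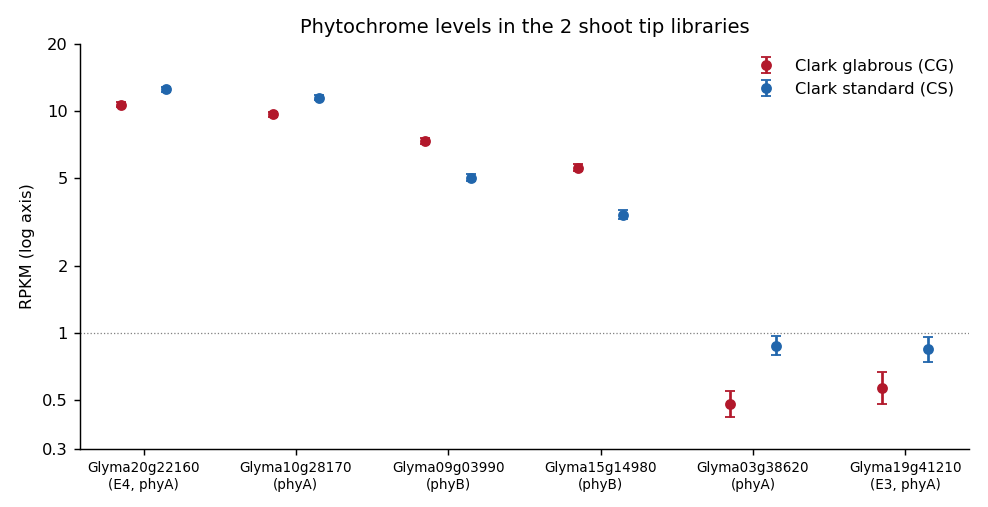
RPKM of the 6 phytochrome genes on a log axis, with CG in red and CS in blue, and bars for exact Poisson 95% intervals of the recovered alignments (1 library per line). The phytochrome A genes are lower in CG, as E4 with 10.7 RPKM in CG and 12.5 RPKM in CS, the phytochrome B genes are higher in CG, and E3 and Glyma03g38620 lie below the dotted line at 1 RPKM.

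E3 was expressed at a far lower level than E4. It had 0.565 RPKM in CG (interval 0.478 to 0.663) and 0.840 RPKM in CS (interval 0.736 to 0.955), from at least 151 and 233 alignments. Its level in CG was 0.672 of that in CS, with an interval of 0.544 to 0.829. The log2 CG/CS ratio was -0.57, or -0.50 after 0.1 RPKM was added to both values. E4 stood 18.9-fold above E3 in CG and 14.9-fold above it in CS. The shortest model length that fits both values of E3 was 1815 bases, the shortest of the 6 genes, while the lengths of the others came to between 3006 and 4033 bases. The true length can be a multiple of the smallest one, and the alignments of E3 would then be the same multiple.

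Glyma03g38620, the duplicate of E3, had 0.479 RPKM in CG (interval 0.417 to 0.548) and 0.873 RPKM in CS (interval 0.790 to 0.963), from at least 212 and 401 alignments. It had the widest difference of the phytochrome A genes, with a level in CG of 0.548 of that in CS (interval 0.462 to 0.649). The log2 CG/CS ratio was -0.87, or -0.75 after 0.1 RPKM was added to both values. E3 made up 54.1% of the summed level of this pair in CG (interval 48.7% to 59.4%) and 49.0% in CS (interval 44.9% to 53.1%). E3 was the higher of the pair in CG and the lower in CS, and in both libraries the interval of their level ratio held 1. These were the only neighbours in the order of levels that counting error did not separate. The pair reached a summed level of 1.04 RPKM in CG and 1.71 RPKM in CS, which was 4.89% of all phytochrome A in CG and 6.67% in CS.

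Of the phytochrome B genes, Glyma09g03990 had 7.31 RPKM in CG (interval 7.09 to 7.53) and 4.99 RPKM in CS (interval 4.81 to 5.17), from at least 4339 and 3074 alignments. Its level in CG was 1.46-fold that in CS (interval 1.40 to 1.53), a log2 CG/CS ratio of 0.54. It ranked 19246 among all models in CG and 21487 in CS. This was the third highest level of the 6 genes in both lines.

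Glyma15g14980 had 5.53 RPKM in CG (interval 5.33 to 5.73) and 3.41 RPKM in CS (interval 3.25 to 3.57), from at least 2861 and 1829 alignments. Its level in CG was 1.62-fold that in CS (interval 1.53 to 1.72), a log2 CG/CS ratio of 0.68. Within the phytochrome B pair, Glyma09g03990 made up 56.9% in CG (interval 55.8% to 58.1%) and 59.4% in CS (interval 58.0% to 60.8%). It was the more abundant of the pair in both libraries.

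The members were then set beside all models. Of the 6 genes, 4 passed the filter of a mean RPKM of 1 or more, E4, Glyma10g28170 and both phytochrome B genes, while E3 and Glyma03g38620 did not. The 13.9% and 5.57% of models past 2-fold refer to the 43753 models that passed. None of the 4 phytochrome genes that passed was among either, and none of the 6 was without the filter. Without it, 11.2% of all models were at least 2-fold higher in CG and 5.15% were higher in CS by at least 2-fold.

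The models as a whole had a median log2 CG/CS ratio of 0.34, so the phytochrome A and B ratios lie on either side of a shifted centre. The median over the 6 phytochrome genes was -0.24. Of the models that passed the filter, 18.4% had a lower log2 ratio than E4 and 17.8% had a lower one than Glyma10g28170. The values of E3 and Glyma03g38620 were further down, with 12.0% and 8.30% of models below them, though both genes are under the filter themselves. For the phytochrome B genes, 66.1% of models had a lower log2 ratio than Glyma09g03990 and 74.7% had a lower one than Glyma15g14980. The phytochrome B genes thus lay nearer to the middle of all models than the phytochrome A genes did.

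**Figure D2:**
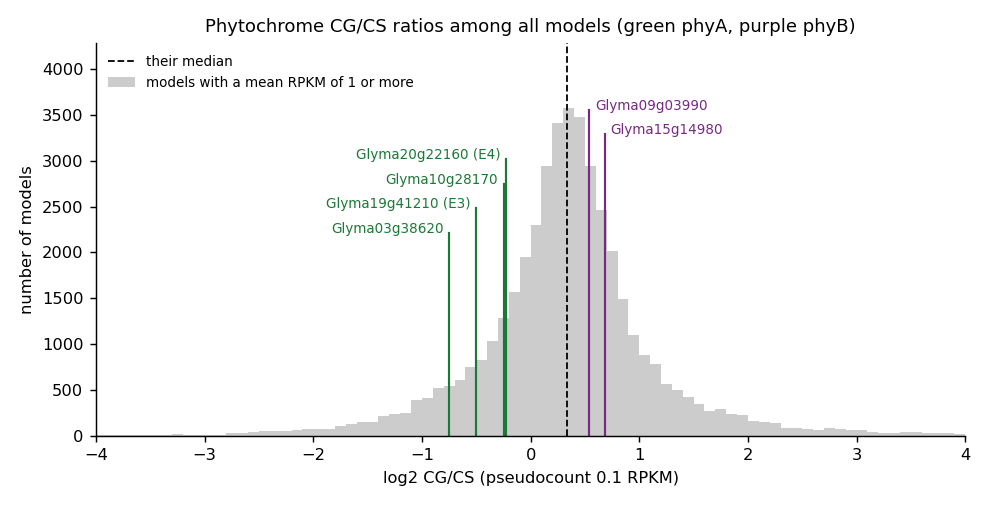
Distribution of the log2 CG/CS ratio over the 43753 models whose mean RPKM was at least 1 (grey, number of models per bin of 0.1), with vertical lines at the phytochrome A genes in green and the phytochrome B genes in purple. The dashed median of all models is at 0.34, and the phytochrome A genes lie between -0.75 and -0.23, while the phytochrome B genes lie at 0.54 and 0.68.

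The direction was the same for each of the 6 genes after the libraries were scaled in other ways. Both ways lower CG, by factors of 0.788 (median-centring) and 0.798 (same upper quartile). Only the phytochrome B genes could therefore have changed direction. With median-centring, where a factor of 0.788 applied to CG brings the median of all models to 0, the log2 CG/CS ratios were -0.57 for E4, -0.59 for Glyma10g28170, -0.79 for E3 and -1.03 for Glyma03g38620. Those of Glyma09g03990 and Glyma15g14980 became 0.20 and 0.35. With both libraries brought to the same upper quartile, the ratios ran from -1.01 to 0.36. Glyma03g38620 passed 2-fold under both of these scalings, though it is below the filter on low values. After median-centring, 8.37% of all models that passed the filter were at least 2-fold higher in CG and 9.34% were higher in CS by at least 2-fold. At the same upper quartile, 8.59% were at least 2-fold higher in CG and 9.11% were higher in CS by that much.

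**Figure D3:**
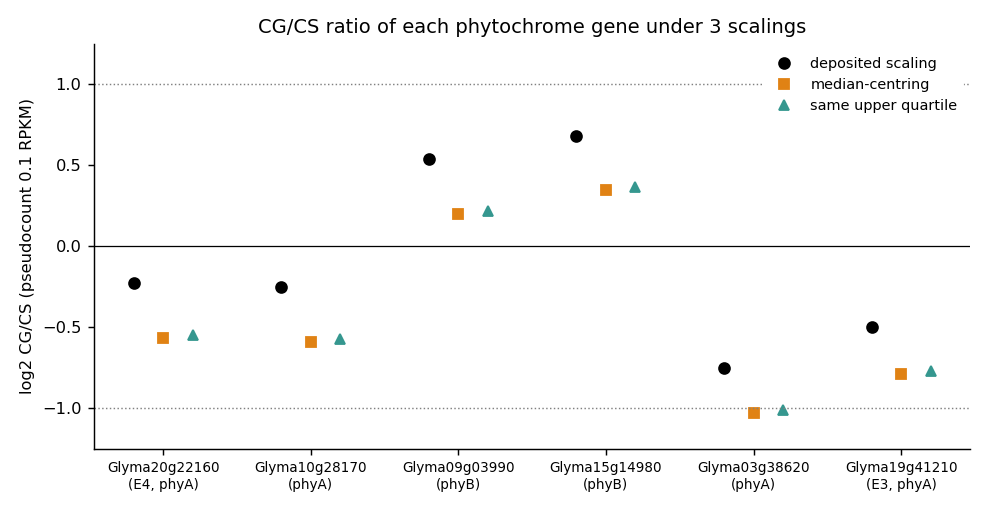
Log2 CG/CS ratio of each phytochrome gene with a pseudocount of 0.1 RPKM, for the deposited scaling (circles), median-centring (squares) and the same upper quartile (triangles), with dotted lines at 2-fold. The signs stay the same under the 3 scalings. Median-centring and the same upper quartile both lower CG, so only the phytochrome B signs could have turned. Glyma03g38620 passes the lower line at -1.03 and -1.01.

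Added up, the 4 phytochrome A genes had 21.3 RPKM in CG and 25.7 RPKM in CS, and the 2 phytochrome B genes had 12.8 RPKM in CG and 8.39 RPKM in CS. The sum over all 6 genes was 34.2 RPKM in CG and 34.1 RPKM in CS, a difference that depends on the scaling. Phytochrome A was 62.5% of this sum in CG and 75.4% in CS. The ratio of phytochrome A to phytochrome B, which does not change when a library is scaled, was 1.66 in CG and 3.06 in CS. The ratio in CG was thus 0.544 of that in CS. A read that fits several of these genes is counted on each, and how far shared reads affect these sums and ratios was not tested. Most of phytochrome A came from the pair of E4 and Glyma10g28170 in both lines, with 95.1% in CG and 93.3% in CS.

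**Figure D4:**
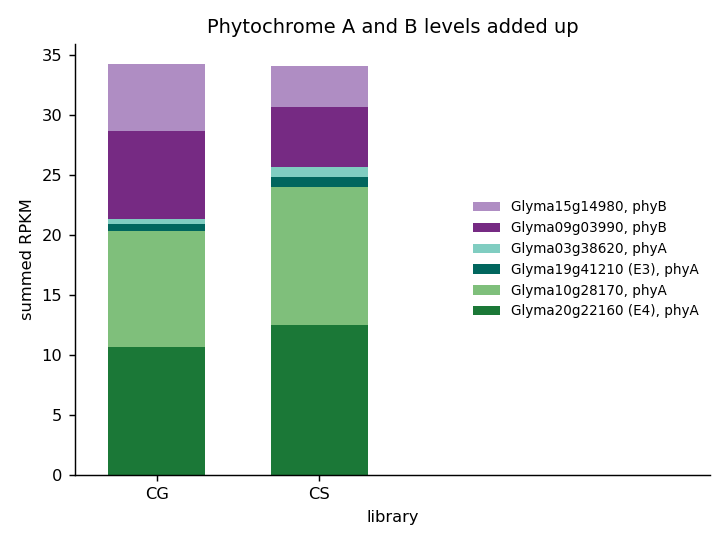
Summed RPKM of the phytochrome genes in the CG library (left) and the CS library (right), stacked by gene, with phytochrome A in green shades and phytochrome B in purple shades. The bars reach 34.2 RPKM in CG and 34.1 RPKM in CS, and phytochrome B takes up 37.5% of the bar in CG and 24.6% in CS.

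The loci beside each phytochrome gene were examined next, 5 on either side by their numbers on the chromosome. Around E4, 9 of 10 neighbours passed the filter, and their log2 CG/CS ratios ran from -1.16 to 1.18, with a median of 0.44. Around Glyma10g28170, 3 passed, all higher in CG, with ratios from 0.44 to 0.91 and a median of 0.68. This gene stood below each of them. Around E3, 6 passed, with ratios from -1.30 to 1.27 and a median of 0.11. Around Glyma03g38620, 5 passed, with ratios from -1.19 to 1.35 and a median of -0.03. The 7 neighbours of Glyma09g03990 that passed and the 3 of Glyma15g14980 were all higher in CG. Their ratios ran from 0.19 to 1.34, with a median of 0.77, and from 0.49 to 1.26, with a median of 1.18. Among all models that passed the filter, 72.7% were higher in CG. Over whole chromosomes the median log2 ratio of the loci that passed, 1 model per locus, lay between 0.33 and 0.37 for the 6 chromosomes that hold these genes.

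**Figure D5:**
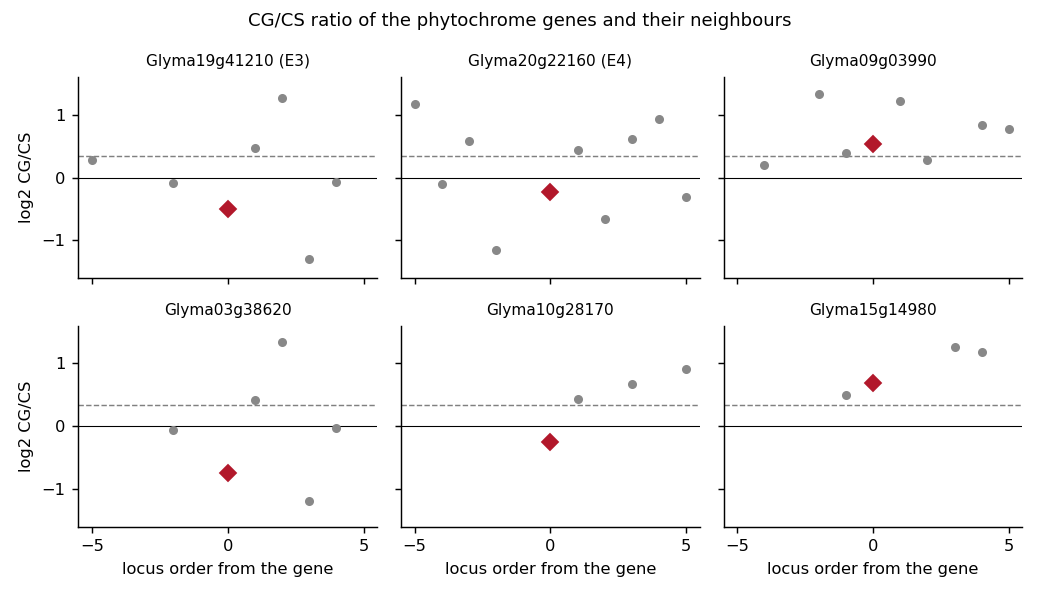
Log2 CG/CS ratio (pseudocount 0.1 RPKM) of each phytochrome gene (red diamond) and of those of its 5 neighbours on either side that have a mean RPKM of 1 or more (grey circles), by order of their Glyma numbers. The dashed line is the median of all models at 0.34, and the neighbours of E3 spread from -1.30 to 1.27 around its own -0.50.

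With 2 libraries, likeness to a phytochrome gene can only mean a similar pair of levels. By the distance between log2 values of RPKM plus 0.1, 37 loci lay within 0.1 of E3, 36 of Glyma03g38620, 60 of E4, 67 of Glyma10g28170, 208 of Glyma09g03990 and 157 of Glyma15g14980. The nearest to E4 was Glyma01g20700, with 10.7 RPKM in CG and 12.4 RPKM in CS, at a distance of 0.012. The nearest to E3 was Glyma13g30810, with 0.577 RPKM in CG and 0.846 RPKM in CS. For the phytochrome B genes the nearest were Glyma16g26220 to Glyma09g03990, with 7.30 RPKM in CG and 5.03 RPKM in CS, and Glyma18g00530 to Glyma15g14980, with 5.52 RPKM in CG and 3.39 RPKM in CS. Names for these loci were not given in the tables.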

How the data were processed

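The authors aligned 75-base reads with Bowtie (version not given in the sources used here) to the Glyma cDNA models of the reference cultivar, with up to 3 mismatches and 25 alignments per read, and deposited RPKM values, 1 per model and library. Use of strand is not given in the sources used here.

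RPKM values are not counts, and no count test was used. Alignments and lengths were recovered because RPKM values are whole multiples of 1 alignment per model length. This worked for 68783 of 69123 models above 0 (99.5%) and was tested on simulated data. Log2 CG/CS ratios were taken after adding 0.1 RPKM, which understates the change of low genes. The background was the models whose mean RPKM reached 1, and a log2 ratio of 1 in size or above counted as 2-fold. Intervals are exact, with 95% confidence.

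The 6 genes, their lists and comparisons were chosen with earlier results of these data known. All members were named, with the nearest locus of E3, E4 and both phytochrome B genes. The RefSeq gene table of Glycine_max_v4.0 matched 0 Glyma identifiers, so a planned list of light signalling genes was not used, and no sequences are shown. Alternatives were pseudocounts of 0.01 and 1, other scalings, other filters and summing the models of a locus. The tools were matplotlib 3.10.9, SciPy 1.17.1, NumPy 2.4.6, pandas 2.3.3 and Python 3.11.15.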

Additional observations from a re-analysis of the deposited data

How the results depend on the processing

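No paired analysis was possible because there is a single library of each line, which also left none to leave out. The log2 CG/CS ratio of the summed phytochrome A level was -0.27 as reported, -0.61 with median-centring and -0.59 with the same upper quartile. That of the summed phytochrome B level was 0.61 as reported, 0.26 with median-centring and 0.28 with the same upper quartile. The number of phytochrome genes at least 2-fold higher in CS was 0 as reported and 1, Glyma03g38620, when either scaling was combined with no filter. That combination was chosen after seeing the data. The share of all models past 2-fold was not worked out for it, so this count has no background beside it. Of 30 alternative values for single genes, 0 changed direction and 13 moved by more than counting error. Pseudocounts and summed models could not change a direction, and both scalings lower CG. Only the rescaled values of the phytochrome B genes could therefore have changed direction. A pseudocount of 1 lowered the size of the ratio of Glyma03g38620 most, to -0.34. Summing the models of a locus changed nothing, since each gene has 1 model. E3 and Glyma03g38620 rest on the fewest alignments, and the intervals of their levels are the widest relative to the level.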

Other observations

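Loci at the same places beside E3 on chromosome 19 and beside Glyma03g38620 on chromosome 3 were compared after the values were seen. At the 5 of 10 places where both neighbours had a mean RPKM of at least 1, the log2 CG/CS ratios differed by between 0.027 and 0.11. At the other 5 places at least 1 neighbour was below that level, or both were listed at 0, and the ratios differed by up to 0.49, with opposite signs at the fourth and the fifth locus before the gene. At the second locus after the gene, both neighbours were more than 2-fold higher in CG, with log2 ratios of 1.27 beside E3 and 1.35 beside Glyma03g38620. At the next locus, both were more than 2-fold lower in CG, with log2 ratios of -1.30 beside E3 and -1.19 beside Glyma03g38620. At the locus after that, the ratios were -0.07 beside E3 and -0.03 beside Glyma03g38620, and at the first locus after the gene they were 0.47 and 0.42.

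The levels were also alike at some of these places. At the third locus after the gene, the neighbour of E3 had 1.54 RPKM in CG and 3.93 RPKM in CS, and the neighbour of Glyma03g38620 had 1.70 RPKM in CG and 4.00 RPKM in CS. At the first locus they were not, with 3.95 RPKM in CG and 2.82 RPKM in CS beside E3, and 8.05 RPKM in CG and 5.98 RPKM in CS beside Glyma03g38620. At the same places beside the other phytochrome pairs, some ratios lay further apart. Where both neighbours had a mean RPKM of at least 1, the log2 ratios beside E4 and Glyma10g28170 differed by between 0.0028 and 1.22 at 3 places. Beside the phytochrome B genes they differed by 0.099 and 0.34 at 2 such places. At the remaining places the ratios differed by up to 2.08 beside the E4 pair and up to 2.63 beside the phytochrome B pair. Whether these neighbours are duplicates of each other, and how many reads they share, was not tested.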
